A study of Homo sapiens with 6 samples.

Results

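Transcripts of the DNA damage checkpoint and of DNA repair were followed in cells of the gastric cancer line HGC-27 after knockdown of GXYLT2, a xylosyltransferase that extends the O-glucose carried by EGF repeats. The set holds 55 named genes in 10 roles, taken by symbol from a table of 62703 genes, and all 55 were found once and passed the filter on low counts, as did 15693 genes in all. One group of 3 libraries came from cells stably expressing an shRNA against GXYLT2 (shGXYLT2). The other 3 libraries came from cells with a control shRNA (shControl), which the labels give as wild type. Both groups were grown in RPMI 1640 with 10% fetal bovine serum, and polyadenylated RNA was sequenced. The labels name 1 knockdown line and do not say whether replicates were separate cultures, so p-values measure the spread between these libraries, which may be technical.

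Broken or chemically altered DNA is sensed by the kinases ATM and ATR, which signal through CHEK2 and CHEK1 to halt the cell cycle. Repair then follows the kind of lesion: homologous recombination copies an intact sister chromatid, end joining ligates broken ends directly, the Fanconi anemia proteins unhook crosslinked strands, and mismatch, nucleotide excision and base excision repair replace damaged or mispaired stretches of a single strand. Many of these genes are transcribed most strongly in cells that are copying their DNA, and much of the damage response acts through phosphorylation and ubiquitin, which RNA levels do not show.

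Estimated counts totalled 22187998 to 24898399 in shGXYLT2 libraries and 17291103 to 22540005 in shControl libraries, and a member rested on between 116 and 22608 counts in a library. GXYLT2 itself (ENSG00000172986; chromosome 3, bases 72888073 to 72998138 on the plus strand, GRCh38) stood at 5.27, 6.26 and 5.34 CPM (counts relative to the library's total, scaled by TMM factors) in shGXYLT2 replicates 1 to 3, against 20.7, 22.8 and 20.2 CPM in shControl replicates 1 to 3. Its mean was 73.5% lower in shGXYLT2 (p = 0.1 in a two-sided exact permutation test, and no smaller p is possible with 3 libraries a group). Its paralog GXYLT1 was lower too, at 34.8, 40.02 and 31.3 CPM in shGXYLT2 replicates 1 to 3, against 71.7, 70.9 and 77.0 CPM in shControl replicates 1 to 3, and the parts of both genes in the differences below cannot be told apart. Among markers of the labelled cell type, the epithelial genes EPCAM and KRT18 did not exceed 0.234 and 0.0879 CPM in any library, CDH1 lay between 1.66 and 3.28 CPM and KRT8 between 1.23 and 2.02 CPM. The gastric genes TFF1 and MUC5AC had 0 counts in all 6, the intestinal lineage gene CDX2 was present at 4.27 to 5.68 CPM, and the mesenchymal gene VIM lay between 2414 and 2755 CPM. In bulk RNA, fewer cells of a kind and less RNA per cell cannot be told apart.

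Most checkpoint and repair transcripts differed little between shGXYLT2 and shControl. MDC1 and XRCC1 rose and XRCC2, FANCM and PRKDC fell, so that 5 of 55 members passed the test (adjusted p below 0.05 by the quasi-likelihood test of edgeR, with Benjamini-Hochberg adjustment over 15693 genes), a share of 9.09%, beside 12.2% of all tested genes. The 2 rises stood against a background of 5.31% of tested genes that rose, and the 3 falls against 6.84% that fell. No member changed by more than 0.5 on the log2 scale, a size passed by 10.2% of all tested genes. The largest difference, that of RAD52, was -0.34 and did not pass. The median log2 fold change was -0.02 over the members and -0.01 over all tested genes, and the median size of the change without its sign was 0.08 over the members and 0.14 over all tested genes. In this main analysis the members' shares are therefore near or below those of the whole table. These sizes were not compared at matched levels. Every member had at least 116 counts in each library, while the tested genes include some with fewer. MLH3, a mismatch repair gene outside the members, had 9 to 24 counts a library. How far low counts widen the sizes over all tested genes was not tested.

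A transcript that missed the threshold is not thereby shown to be the same in both groups, so intervals are given. Of the 50 members that did not pass, 48 had a 95% interval of the log2 fold change that stayed within 0.5 of zero (1.41-fold), and 40 stayed within 0.3 (1.23-fold). The exceptions at 0.5 were RAD52 (-0.57 to -0.11) and LIG4 (-0.50 to 0.03), which rested on 189 to 256 and 184 to 300 counts a library. The shGXYLT2 libraries lay wholly above or below the shControl libraries in 15 members (27.3%), beside 30.4% of tested genes.

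**Figure D1:**
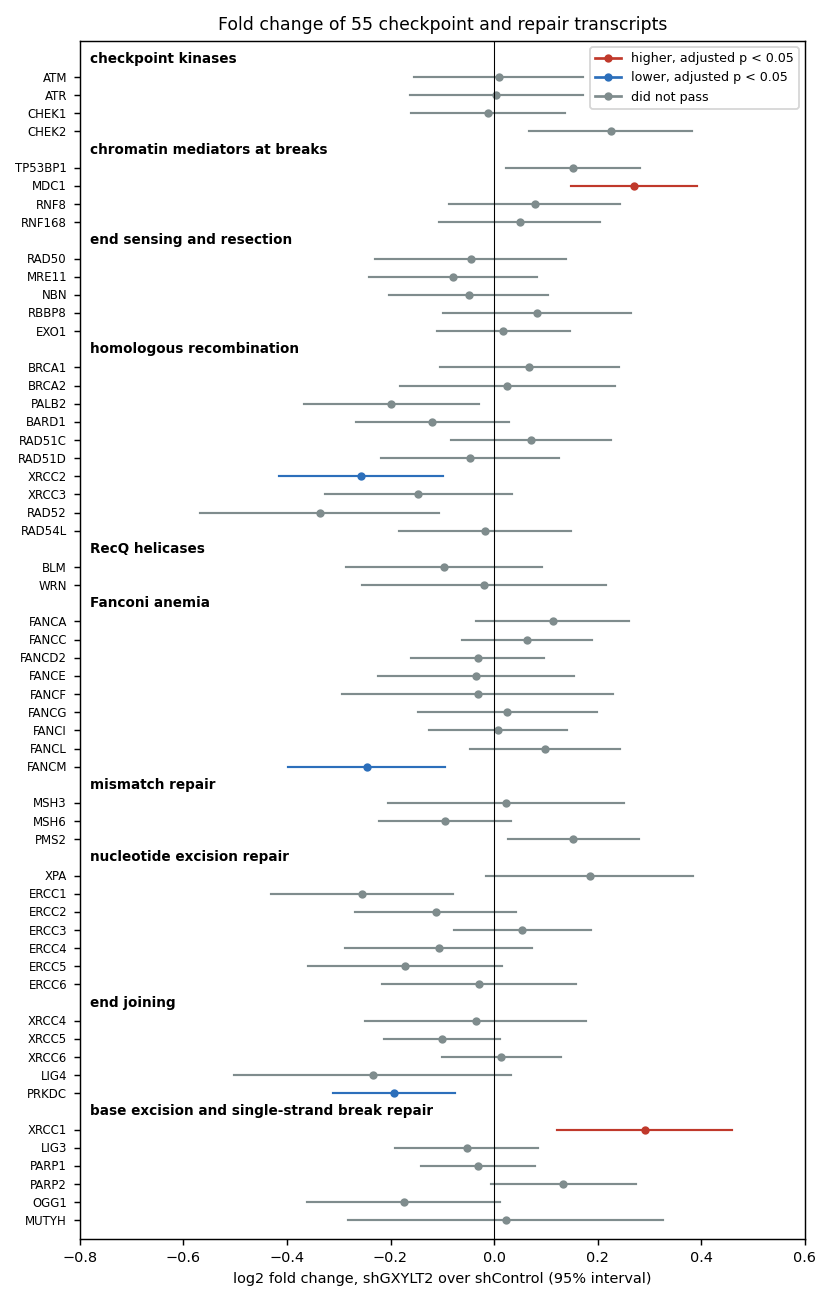
Log2 fold change of each of the 55 members, shGXYLT2 over shControl, with its 95% interval, grouped by role; red points rose and blue points fell at an adjusted p below 0.05, and grey points did not pass. All points lie between -0.34 and 0.29, and the 5 coloured points are MDC1, XRCC2, FANCM, PRKDC and XRCC1.

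The checkpoint kinases gave 0 of 4 calls. ATM, the kinase recruited to double-strand breaks, averaged 89.0 ± 8.90 CPM in shGXYLT2 and 88.4 ± 7.57 CPM in shControl (SD, n = 3 each), with a log2 fold change of 0.01 and an interval of -0.15 to 0.17. For ATR, the kinase of stalled replication forks, the interval was -0.16 to 0.17, and for its target CHEK1 it was -0.16 to 0.14. CHEK2, the effector kinase downstream of ATM, came closest to the threshold. It stood at 29.7, 30.9 and 30.9 CPM in shGXYLT2 replicates 1 to 3, against 26.2, 26.0 and 26.1 CPM in shControl replicates 1 to 3. The groups did not overlap, and the log2 fold change was 0.22 (SE 0.0752, edgeR adjusted p = 0.0574).

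Among the proteins that mark chromatin around a break, MDC1 rose. This scaffold binds phosphorylated histone H2AX and recruits the ubiquitin ligases RNF8 and RNF168. The gene (ENSG00000137337) lies on chromosome 6, bases 30699807 to 30717889 on the minus strand of GRCh38. It was measured at 119.7, 125 and 125 CPM in shGXYLT2 replicates 1 to 3, against 103, 102 and 101 CPM in shControl replicates 1 to 3. Every shGXYLT2 library was above every shControl library, and the spread within each group was small. The mean was 123 ± 3.14 CPM in shGXYLT2 and 102 ± 0.952 CPM in shControl (SD, n = 3 each), 1.21-fold higher (log2 fold change 0.27, SE 0.0582, edgeR adjusted p = 0.00442). TP53BP1, which shields ends from resection, averaged 128 CPM in shGXYLT2 and 115 CPM in shControl without overlap of the groups (edgeR adjusted p = 0.120). RNF8 and RNF168 gave log2 fold changes of 0.08 and 0.05, and their groups overlapped. All 4 genes of this role had a positive log2 fold change, and 1 passed. Positive values were found in 25 of 55 members and in 7667 of 15693 tested genes, and 4 genes are too few to set against these counts.

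End sensing and resection gave 0 of 5 calls, and the 2 groups overlapped in all 5 members. RAD50, MRE11 and NBN encode the complex that binds and trims broken ends. MRE11, the nuclease of the complex and the lowest p of this role, stood at 48.9, 54.9 and 43.9 CPM in shGXYLT2 replicates 1 to 3, against 50.9, 52.5 and 52.7 CPM in shControl replicates 1 to 3 (log2 fold change -0.08, edgeR adjusted p = 0.575). RBBP8, the cofactor CtIP that starts resection, was at 107, 111 and 84.5 CPM in shGXYLT2 and 93.9, 91.9 and 100.2 CPM in shControl. Its shGXYLT2 libraries thus held both the highest and the lowest of the 6 values. The nuclease EXO1 had an interval of -0.11 to 0.15.

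In homologous recombination 1 of 10 members passed, and it fell. XRCC2, a paralog of the strand-exchange recombinase that works with RAD51D, is encoded on chromosome 7, bases 152644779 to 152676165 on the minus strand of GRCh38 (ENSG00000196584). Its level was 66.1, 73.5 and 60.8 CPM in shGXYLT2 replicates 1 to 3, against 77.4, 75.7 and 86.3 CPM in shControl replicates 1 to 3. The groups did not overlap, although replicate 2 of shGXYLT2 came close to replicate 2 of shControl. The means were 66.8 ± 6.41 CPM in shGXYLT2 and 79.8 ± 5.68 CPM in shControl (SD, n = 3 each; log2 fold change -0.26, SE 0.0756, edgeR adjusted p = 0.0314). RAD52, an annealing factor, was at 8.38, 8.58 and 9.78 CPM in shGXYLT2 and 11.4, 11.1 and 11.2 CPM in shControl, without overlap but short of the threshold (edgeR adjusted p = 0.0526).

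The breast cancer susceptibility genes of the same role did not pass. BRCA1 averaged 85.6 ± 10.1 CPM in shGXYLT2 and 81.7 ± 6.76 CPM in shControl (SD, n = 3 each), with an interval of -0.11 to 0.24, and BRCA2, which loads the recombinase onto single strands, had an interval of -0.18 to 0.23. PALB2, the bridge between BRCA1 and BRCA2, averaged 31.2 CPM in shGXYLT2 and 35.8 CPM in shControl (interval -0.37 to -0.03, edgeR adjusted p = 0.122). BARD1, the partner of BRCA1 in its ubiquitin ligase, gave -0.12 on the log2 scale. RAD51C, RAD51D, XRCC3 and RAD54L had log2 fold changes of 0.07, -0.05, -0.15 and -0.02, with adjusted p of 0.312 or more by edgeR.

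Of 9 Fanconi anemia genes 1 fell. FANCM, the translocase that detects stalled and crosslinked forks, lies on chromosome 14, bases 45135940 to 45200890 on the plus strand of GRCh38 (ENSG00000187790). It was found at 37.0, 36.3 and 35.8 CPM in shGXYLT2 replicates 1 to 3, against 43.0, 40.4 and 45.9 CPM in shControl replicates 1 to 3. All shGXYLT2 values were below all shControl values, with means of 36.4 ± 0.623 CPM in shGXYLT2 and 43.1 ± 2.75 CPM in shControl (SD, n = 3 each; log2 fold change -0.25, SE 0.0725, edgeR adjusted p = 0.0320). FANCA, FANCC, FANCE, FANCF, FANCG and FANCL, which belong to the core ubiquitin ligase complex, gave log2 fold changes between -0.03 and 0.11, with adjusted p of 0.342 or more by edgeR. FANCD2 and FANCI, the pair that this complex ubiquitinates, had intervals of -0.16 to 0.10 and -0.12 to 0.14. For FANCI these rest on averages of 186 CPM in shGXYLT2 and 185 CPM in shControl.

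Neither RecQ helicase passed. BLM, which dissolves recombination intermediates, had the lower p of the pair and stood at 46.8, 46.6 and 35.5 CPM in shGXYLT2 replicates 1 to 3, against 47.1, 44.9 and 45.9 CPM in shControl replicates 1 to 3 (log2 fold change -0.10, edgeR adjusted p = 0.559). WRN, the helicase lost in Werner syndrome, was at 60.1, 64.5 and 45.3 CPM in shGXYLT2 and 55.9, 55.3 and 61.2 CPM in shControl. In both genes shGXYLT2 replicate 3 was the lowest of the 6 libraries, and the other shGXYLT2 libraries lay among or above the shControl libraries.

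None of the 3 mismatch repair genes passed. PMS2, an endonuclease subunit, was at 92.5, 91.9 and 91.3 CPM in shGXYLT2 replicates 1 to 3, against 84.6, 84.0 and 79.5 CPM in shControl replicates 1 to 3. The groups did not overlap, yet the log2 fold change of 0.15 had an edgeR adjusted p of 0.111. PMS2 is uncertain, since 17 rows named as its pseudogenes held 344.9 to 503.9 counts in total per library and the counting could have split reads between near-identical copies. MSH3 and MSH6, the alternative recognition subunits for loops and for single mispairs, gave log2 fold changes of 0.02 and -0.10.

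Nucleotide excision repair, which cuts out bulky lesions, gave 0 of 7 calls. ERCC1, which forms the 5' endonuclease with ERCC4, had the lowest p of the role and stood at 28.9, 28.1 and 32.1 CPM in shGXYLT2 replicates 1 to 3, against 35.9, 38.5 and 32.2 CPM in shControl replicates 1 to 3. The groups did not overlap, by a narrow margin between replicate 3 of shGXYLT2 and replicate 3 of shControl, and the difference of -0.26 on the log2 scale fell short of the threshold (edgeR adjusted p = 0.0535). ERCC4 gave -0.11 and ERCC5, the 3' endonuclease, gave -0.17. The helicases ERCC2 and ERCC3 of the transcription factor TFIIH gave -0.11 and 0.05. The damage verifier XPA gave 0.18, and ERCC6, which couples repair to transcription, gave -0.03, all with adjusted p of 0.236 or more by edgeR.

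In end joining 1 of 5 members passed. PRKDC, the catalytic subunit of the DNA-dependent protein kinase that XRCC5 and XRCC6 recruit to ends, is encoded on chromosome 8, bases 47773108 to 47960183 on the minus strand of GRCh38 (ENSG00000253729). Its level was 860.3, 879.9 and 788 CPM in shGXYLT2 replicates 1 to 3, against 977, 931 and 981 CPM in shControl replicates 1 to 3. The groups did not overlap, and the fall was the smallest of the 3 falling members, at 843 ± 48.6 CPM in shGXYLT2 and 963 ± 27.9 CPM in shControl (SD, n = 3 each; log2 fold change -0.19, SE 0.0565, edgeR adjusted p = 0.0310). XRCC5 (Ku80) and XRCC6 (Ku70), which form the ring that caps ends, did not pass. XRCC5 averaged 861 CPM in shGXYLT2 and 924 CPM in shControl, without overlap of the groups (interval -0.21 to 0.01), and XRCC6 averaged 924 CPM in shGXYLT2 and 915 CPM in shControl (interval -0.10 to 0.13). The ligase LIG4 and its cofactor XRCC4 gave log2 fold changes of -0.23 and -0.04, with adjusted p of 0.264 and 0.871 by edgeR.

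XRCC1 rose, the only call among 6 genes of base excision and single-strand break repair. It encodes the scaffold that gathers the ligase LIG3 and other factors at single-strand breaks, and lies on chromosome 19, bases 43543040 to 43580473 on the minus strand of GRCh38 (ENSG00000073050). XRCC1 was at 27.4, 26.4 and 29.5 CPM in shGXYLT2 replicates 1 to 3, against 22.6, 22.2 and 23.2 CPM in shControl replicates 1 to 3. The lowest shGXYLT2 value exceeded the highest shControl value, and the means were 27.8 ± 1.58 CPM in shGXYLT2 and 22.7 ± 0.513 CPM in shControl (SD, n = 3 each; log2 fold change 0.29, SE 0.0807, edgeR adjusted p = 0.0229). PARP1, the main poly(ADP-ribose) polymerase and break sensor, averaged 574 CPM in shGXYLT2 and 587 CPM in shControl, with an interval of -0.14 to 0.08. PARP2, LIG3, the oxidised-guanine glycosylase OGG1 and the adenine glycosylase MUTYH gave log2 fold changes of 0.13, -0.05, -0.17 and 0.02, with adjusted p of 0.219 or more by edgeR.

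**Figure D2:**
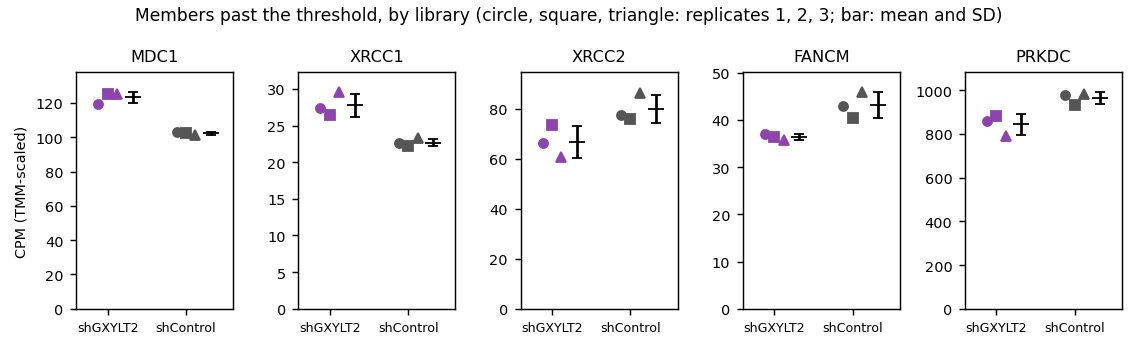
TMM-scaled CPM of the 5 members that passed, 1 panel a gene with its own axis from 0; symbols are replicates 1, 2 and 3 of shGXYLT2 (left) and shControl (right), and bars give the mean and SD of 3 libraries. The groups do not overlap in any panel, and the means differ by 1.14-fold (PRKDC) to 1.22-fold (XRCC1).

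The libraries of the knockdown group were less alike than those of the control group in these genes. Of the 6 libraries, shGXYLT2 replicate 3 was the lowest in 26 of 55 members (47.3%), beside 22.6% of all tested genes. ATM (95.8, 92.2 and 78.9 CPM in shGXYLT2 replicates 1 to 3, against 82.7, 85.5 and 97.0 CPM in shControl), BRCA2, NBN, WRN and LIG4 are examples. The median GC content of the longest transcript was 40% in the members where this library was lowest and 49.6% in the others, and over all tested genes the same medians were 40.9% and 50.7%. The part of GC content in the members' results was not tested apart from the offsets described next.

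**Figure D3:**
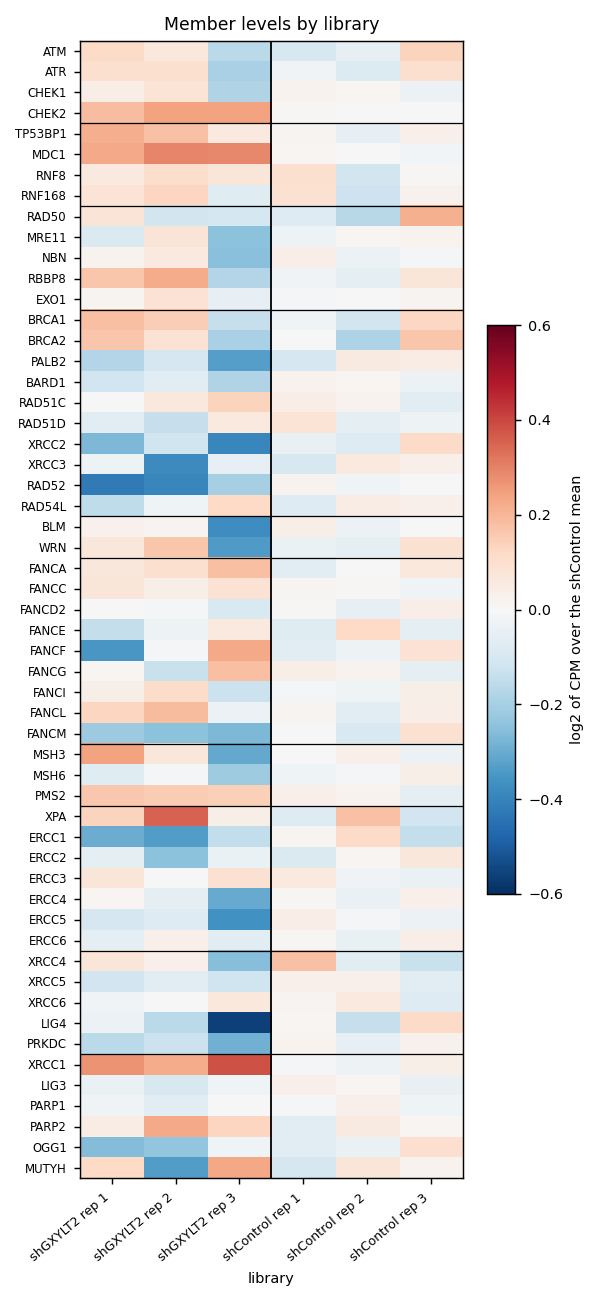
Log2 ratio of each member's CPM to its shControl mean in each of the 6 libraries, with members in rows grouped by role and shGXYLT2 libraries left of shControl libraries. Blue cells gather in shGXYLT2 replicate 3, the lowest library in 26 of 55 members. MDC1 and XRCC1 are red in all 3 shGXYLT2 libraries, and so are some members that did not pass, among them CHEK2 and PMS2.

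Which members passed depended on the libraries in the fit, apart from MDC1. MDC1 passed in the main analysis and in all 14 alternatives, with log2 fold changes of 0.26 to 0.31 and adjusted p of 1.2e-05 to 0.0345 (edgeR, DESeq2 or limma). XRCC1 passed in 10 of 14, XRCC2 in 9, PRKDC in 8 and FANCM in 7, and none of them changed direction. Without shGXYLT2 replicate 3 the count was 11 of 55 members, a larger share than the 14.6% of tested genes that passed there. The additional members were TP53BP1, RBBP8 and PMS2, which were higher in shGXYLT2, and RAD52, ERCC1 and OGG1, which were lower. Without shGXYLT2 replicate 1 only MDC1 passed (background 8.75%), and without shGXYLT2 replicate 2 the 4 calls were MDC1, XRCC1, XRCC2 and PRKDC (background 9.7%). Without shControl replicate 1 MDC1 alone passed (background 6.15%), without shControl replicate 2 MDC1 and FANCM passed (background 7.15%), and without shControl replicate 3 MDC1 and ERCC1 passed (background 6%). With offsets for GC content and gene length 10 members passed, 5 higher and 5 lower, beside 20.6% of tested genes. That fit added CHEK2, TP53BP1, PMS2, PALB2, RAD52 and ERCC1 and lost FANCM, whose log2 fold change was -0.17 there, against -0.25 in the main analysis (adjusted p = 0.0546 by edgeR). PRKDC still passed with the offsets, but its log2 fold change was -0.11, against -0.19 in the main analysis. With the replicate number as a block MDC1 and XRCC1 passed, beside 9.37% of tested genes.

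**Figure D4:**
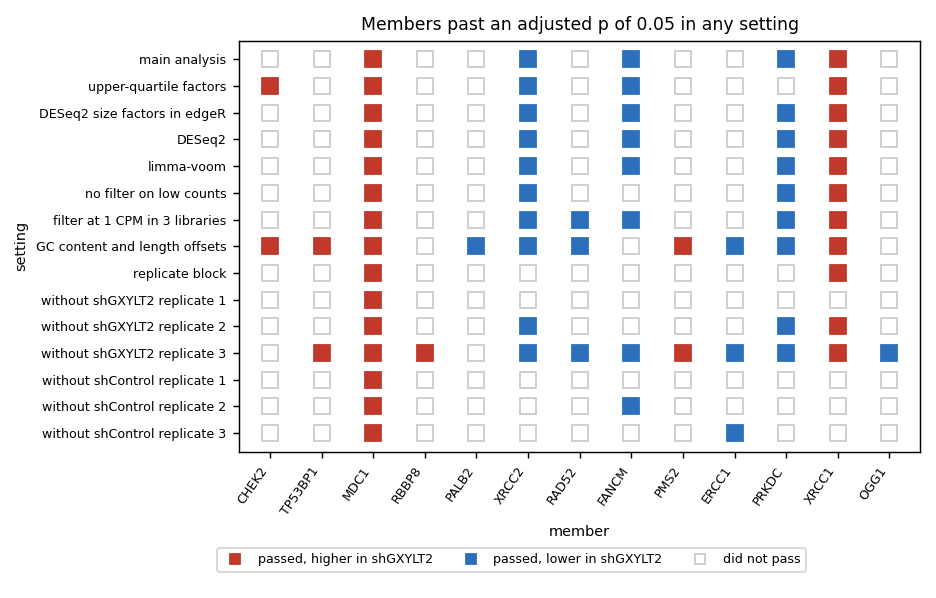
Members (columns) that passed an adjusted p of 0.05 in the main analysis or in any of 14 alternative settings (rows); filled red squares passed as higher in shGXYLT2, filled blue squares passed as lower, and open squares did not pass. MDC1 is filled in all 15 rows, and the most members, 11, are filled without shGXYLT2 replicate 3.

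Levels were compared between genes as CPM per kilobase of the gene length in the deposited table. XRCC6 was the highest at 341 CPM per kilobase in shGXYLT2 and 338 in shControl, followed by XRCC5 (229 and 246) and PARP1 (144 and 147). PRKDC (62.6 in shGXYLT2 and 71.6 in shControl) and MSH6 (56.6 and 60.5) came next. ERCC6 was the lowest at 1.80 CPM per kilobase in shGXYLT2 and 1.84 in shControl, below LIG4 (2.60 and 3.05). XRCC5, XRCC6, PRKDC and PARP1 together took 51.1% to 52.9% of the members' summed CPM in shGXYLT2 libraries and 52.0% to 53.9% in shControl libraries.

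The word GACTCAT was searched in the members' 3' UTRs because an earlier search of these same data had found it to be common among genes that fell, so its counts are a description and no independent support. The search followed the transcript strand. For each gene it took the longest stretch after an annotated stop codon of any transcript (GENCODE release 29, at least 100 bases). Transcripts with an early stop were not excluded, so this stretch, called the 3' UTR here, can hold bases that code for protein in other transcripts. It spans 5375 bases in BRCA1 and 3227 in BLM, beside deposited gene lengths of 7270 and 5033. Whether the sites below lie in such coding bases was not tested. The word was held by 4 of 55 members (7.27%), beside 1143 of 12558 tested genes with such a UTR (9.10%). None of the 4 passed. Over all tested genes, 21.9% of those with the word fell and 6.35% of those without it, and 4 members are too few to set against these shares. The sites follow, with 11 bases on each side and the word in capitals, together with that of WEE1, the one other repair or checkpoint gene with the word that fell.
BRCA1: caacgaaactgGACTCATtactccaaata
BLM: tgcaagtaacaGACTCATttctactctgg
XRCC5: aaggcataaatGACTCATctctctgtgaa
LIG4: ctgatctggcaGACTCATtgcagcaggtg
WEE1: acatgctaaaaGACTCATtactactcagc

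The 4 members that hold it in the searched stretch had log2 fold changes of 0.07 (BRCA1), -0.10 (BLM), -0.10 (XRCC5) and -0.23 (LIG4). Their median was -0.10, and it rests on sites that may lie in coding bases of other transcripts. The median over the 51 members without the word was -0.02. The 3 members that fell, XRCC2, FANCM and PRKDC, do not hold the word in the UTR that was searched.

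Promoters from RefSeq (GRCh38.p14, 250 bases before to 50 after the start) matched 50 of 55 members. The words TTTGGCGC and TTTCCCGC, forms of the site bound by E2F factors, which drive genes of DNA synthesis, were searched on both strands. At least 1 of them was present in 6 of 50 promoters (12%), beside 408 of 11024 promoters of tested genes (3.70%). Windows around the words, 5' to 3' on the gene's strand with the word or its reverse complement in capitals, are shown to place them beside the genes' fold changes.
MSH6 (chr2:47783137-47783166, plus strand): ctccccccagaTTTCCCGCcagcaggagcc
FANCD2 (chr3:10026424-10026453, plus strand): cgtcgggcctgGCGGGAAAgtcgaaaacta
MSH3 (chr5:80654534-80654563, plus strand): gcgcggtcaagTTTGGCGCgaaattgtggc
XRCC2 (chr7:152676102-152676131, minus strand): tggcgttggtgGCGGGAAAgttgagtctct
FANCC (chr9:95317737-95317766, minus strand): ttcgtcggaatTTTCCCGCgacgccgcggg
XRCC6 (chr22:41621326-41621344, plus strand): gtcgcttccctGCGCCAAA

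XRCC2 fell (-0.26 on the log2 scale), and the other 5 genes did not pass, with log2 fold changes of 0.02 for MSH3, -0.10 for MSH6, -0.03 for FANCD2, 0.06 for FANCC and 0.01 for XRCC6. The word CCAAT was present in 44% of the members' promoters, beside 36.9% of promoters of tested genes, GGGCGG in 76%, beside 69.2%, and TTTGAA in 8%, beside 9.98%, each on either strand. A match is a run of letters and not a measured binding site.

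Several members share annotated exons with another gene, and the sources used here do not say whether reads were counted by strand. Of 55 members 20 overlapped the exons of a gene with a mean of at least 20 counts, and for 15 of them such a gene lies on the opposite strand. XRCC3 shares 76.7% of its annotated exon bases with KLC1, and RAD50 shares 79.7% with AC116366.3, annotated as a protein-coding gene on the same strand. ERCC5 shares 63.2% with BIVM-ERCC5 on the same strand. BIVM-ERCC5 averaged 1.77 CPM in shGXYLT2 and 0.239 CPM in shControl (edgeR adjusted p = 0.200). ERCC1 and POLR1G overlap by 1593 bases on opposite strands, and their log2 fold changes were -0.26 and -0.24. Reads of such pairs may have been assigned to either gene. The 5 members that passed overlapped no gene with a mean of 20 counts or more.

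Repair and checkpoint genes outside the 55 members gave a similar picture. Of 110 listed genes 108 were tested, and 5 rose and 3 fell (7.41%, beside 12.2% of all tested genes), with a median log2 fold change of -0.03. The largest fall was that of WEE1, the kinase that holds CDK1 inactive before mitosis. WEE1 was at 46.3, 46.6 and 45.7 CPM in shGXYLT2 replicates 1 to 3, against 70.2, 71.8 and 72.2 CPM in shControl replicates 1 to 3, 1.54-fold lower (log2 fold change -0.63, SE 0.0631, edgeR adjusted p = 1.4e-06). The groups were far apart relative to their spread, and WEE1 passed in all 14 alternatives.

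RPA2 and RPA3, the middle and small subunits of the complex that coats single-stranded DNA, rose. RPA3 was at 86.2, 111 and 105 CPM in shGXYLT2 and 72.0, 74.0 and 72.1 CPM in shControl (log2 fold change 0.47, edgeR adjusted p = 5.1e-04), and RPA2 averaged 77.5 CPM in shGXYLT2 and 66.0 CPM in shControl (adjusted p = 0.0201). RPA1, the large subunit, averaged 140.5 CPM in shGXYLT2 and 134 CPM in shControl and did not pass (edgeR adjusted p = 0.488). NHEJ1, the end-joining factor XLF, was at 33.4, 29.8 and 31.7 CPM in shGXYLT2 and 38.6, 40.8 and 39.7 CPM in shControl, a log2 fold change of -0.33 (edgeR adjusted p = 0.00618). The uracil glycosylase UNG fell by 0.29 on the log2 scale. BABAM2, a subunit of the BRCA1-A complex, RMI2, a partner of BLM, and ZSWIM7, a partner of the strand-exchange paralogs, rose by 0.27, 0.43 and 0.52 on the log2 scale, with adjusted p of 0.0420, 0.0374 and 0.0320 by edgeR. WEE1, RPA3 and NHEJ1 passed in all 14 alternatives, RPA2 and UNG in 10, and BABAM2, RMI2 and ZSWIM7 in 7.

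**Figure D5:**
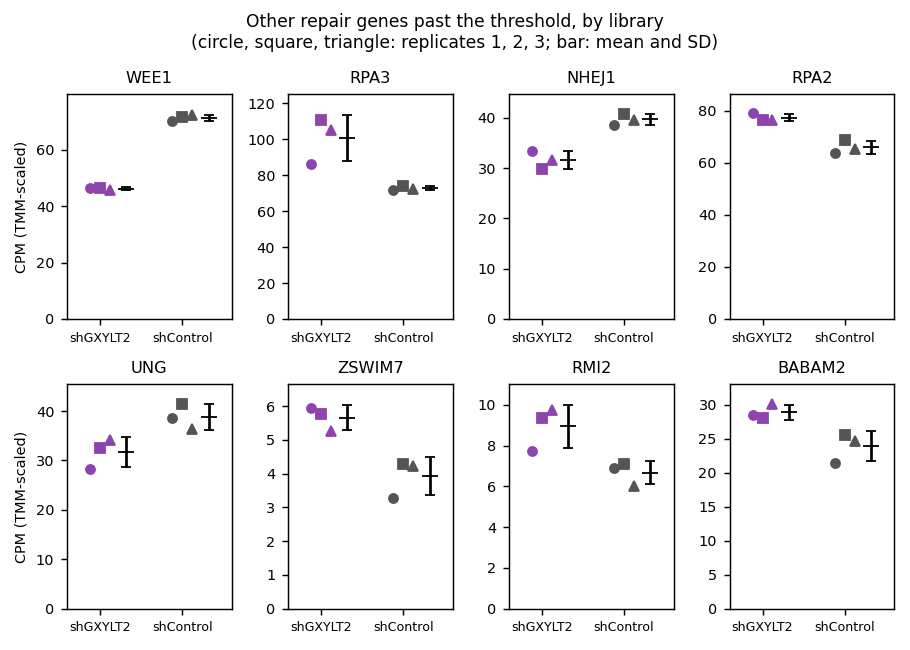
TMM-scaled CPM of the 8 repair and checkpoint genes outside the member list that passed, 1 panel a gene with its own axis from 0; symbols are replicates 1, 2 and 3 of shGXYLT2 (left) and shControl (right), and bars give the mean and SD of 3 libraries. WEE1 has the widest gap relative to its spread, and the groups do not overlap in any of the 8 panels.

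Since repair genes are known to follow the cell cycle, 32 cell cycle genes were counted beside them. None rose and 2 fell (6.25%, beside 12.2% of all tested genes), E2F8, a repressor of the E2F family, by 0.30 and CCNE2, a cyclin of S-phase entry, by 0.40 on the log2 scale. Their median log2 fold change was -0.02, the same to 2 decimals as that of the members. The groups did not overlap in 13 of the 32 genes (40.6%, beside 30.4% of tested genes). Of these, 9 were higher in shGXYLT2 without passing, among them the replication factors PCNA (262 CPM in shGXYLT2 and 234 CPM in shControl) and MCM7 (627 CPM in shGXYLT2 and 571 CPM in shControl), and 4 were lower. The summed CPM of all 32 ranged from 7384 to 7622 in shGXYLT2 libraries and from 7404 to 7519 in shControl libraries. The members' summed CPM ranged from 6005 to 6319 in shGXYLT2 libraries and from 6356 to 6397 in shControl libraries. The widest differences behind these sums were those of PRKDC (843 CPM in shGXYLT2 and 963 CPM in shControl on average) and XRCC5 (861 CPM in shGXYLT2 and 924 CPM in shControl), so the sums do not describe the members as a whole.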

How the data were processed

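The values are unnormalized estimated counts per gene in the table that the authors deposited, beside a gene length. The submitters' processing notes name fastp, HISAT2, StringTie and GRCh38.p13. Not given in the sources used here: their versions and roles, the counting step, the annotation and how gene length was defined. Per the labels' protocols, libraries came from an Illumina stranded messenger RNA kit. Columns were matched to libraries through the sample descriptions, and groups and replicate numbers came from the titles. The descriptions number some libraries otherwise, so libraries with the same title number do not always share a number there.

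Counts were rounded and analysed in R 4.3.3 with edgeR 4.0.16: filterByExpr by group, TMM factors, and the robust quasi-likelihood test with group as the only term, over all 6 libraries, with Benjamini-Hochberg adjustment over 15693 genes. The alternatives used upper-quartile or DESeq2 size factors, DESeq2 1.42.0, limma-voom (limma 3.58.1), other filters, loess offsets for GC content and length (available for 96.3% of tested genes), the replicate block, and each library left out. Positions, exons, GC content and 3' UTRs came from GENCODE release 29, and promoters from RefSeq. The model was tested on simulated counts. Summaries used Python 3.11.15 with pandas 2.3.3 and scipy 1.17.1, and plots matplotlib 3.10.9.

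The members and lists were chosen with earlier results of these data known. Every member may be named, with the value of every library for members that passed and for the lowest p of a role without a call, and other repair genes were named up to 10 by adjusted p among those that passed, and genes of the cell cycle and p53 lists up to 4 each. RPA1, PCNA, MCM7, GADD45A, BTG2, TIGAR, GXYLT1, other values of members that did not pass, genes that overlap a member that did not pass, CDKN1A and MDM2 were named outside this rule. The intervals of the fold changes give the precision at this depth. Chi-square statistics of the counts per degree of freedom were 5.42 to 9.94 between shGXYLT2 libraries and 1.93 to 3.79 between shControl libraries, so none was taken as a copy of another.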

Additional observations from a re-analysis of the deposited data

How the results depend on the processing

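The count of 5 members moved by over 1.5 times with GC content and length offsets, to 10 (5 higher and 5 lower), and that of all called genes was 3106, beside 1907 in the main analysis. With the replicate block, 2 members were called, 2 higher and 0 lower, beside 1471 genes in all. With 1 library left out, the members called ranged from 1 to 11, those higher from 1 to 5 and those lower from 0 to 6, and all called genes ranged from 960 to 2347. The highest of these counts came without shGXYLT2 replicate 3, and the cause was not tested. The other 6 alternatives gave 4 to 6 members, beside 1605 (DESeq2) to 2095 (no filter on low counts) called genes in all. The members' median log2 fold change ran from -0.04 to 0.01 over all 14. Upper-quartile factors moved the median of all tested genes to 0.02 and gave 3 rises and 2 falls among the members. The replicate numbers are those of the titles, and the descriptions number some libraries otherwise. Deviations of same-numbered libraries from their group means correlated at 0.00519, -0.0429 and -0.0234, which does not show a pairing by number. Whether libraries shared a culture or batch was not tested. Under the block the log2 fold changes of XRCC2, FANCM and PRKDC were -0.26, -0.24 and -0.19, near those of the main analysis. Why their calls were lost was not tested. The GXYLT2 level was 73.5% lower in the main analysis; with 1 library left out the change was -75.0% to -72.5%, and on library totals alone it was -73.4%. None of the 5 members reversed under any alternative. Depth limits MUTYH most, at 116 to 194 counts a library.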

Other observations

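Genes known as direct targets of p53, the transcription factor that many checkpoint signals reach, were counted as a companion list. Of 24 listed genes 23 were tested, and 2 rose and 5 fell (30.4%, beside 12.2% of all tested genes). PLK3, a stress-responsive kinase, averaged 1.81 ± 0.491 CPM in shGXYLT2 and 3.49 ± 0.178 CPM in shControl (SD, n = 3 each), a log2 fold change of -0.95 with an adjusted p of 0.00585 by edgeR, at 34 to 76 counts a library. TNFRSF10B, a death receptor, fell by 0.28 on the log2 scale (edgeR adjusted p = 0.00721), and its searched 3' UTR held the word GACTCAT. PPM1D, a phosphatase that switches off ATM signalling, rose by 0.31 on the log2 scale (edgeR adjusted p = 0.0133), and TP53INP1 rose by 0.81 at 2.54 CPM in shGXYLT2 and 1.43 CPM in shControl (adjusted p = 0.0190). The other falls were those of GADD45A, BTG2 and TIGAR, with log2 fold changes of -0.30, -0.44 and -0.27 and adjusted p of 0.0312, 0.0339 and 0.0357 by edgeR. Most genes that passed thus fell, while the list as a whole did not move one way, with a median log2 fold change of 0.03. The cell cycle inhibitor CDKN1A averaged 10.3 CPM in shGXYLT2 and 9.21 CPM in shControl (edgeR adjusted p = 0.404), and MDM2, the ubiquitin ligase of p53, averaged 57.5 CPM in shGXYLT2 and 63.9 CPM in shControl (adjusted p = 0.416).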
